A study of Mus musculus with 8 samples.

Results

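The genes measured here encode the 5 subunits from which the IL-12 family of cytokines is built, Il12a, Il12b, Il23a, Il27 and Ebi3. They were chosen by name, and all 5 were found among the 48709 genes of the count table. The libraries came from primary mouse alveolar macrophages, the resident phagocytes of the air spaces. There were 4 WT libraries from C57BL/6J mice and 4 from Batf2-/- mice, whose strain background, age and sex the labels do not give. Cells of both genotypes had the same treatment outside the animal, 4 h of interferon gamma (10 ng/mL) followed by 6 h of K. pneumoniae supernatant (20%), and no untreated cells were compared. Each library pooled the cells of 4 mice, so its values are averages over animals, and the comparison asks how loss of BATF2, an AP-1 family transcription factor, bears on polarization toward an inflammatory, M1-like state.

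Each IL-12 family cytokine pairs a helical chain with a chain that resembles a soluble receptor. Il12a and Il12b together give IL-12, Il23a and Il12b give IL-23, Il27 and Ebi3 give IL-27, and Il12a and Ebi3 give IL-35. IL-12 drives interferon gamma production by T and NK cells, IL-23 sustains cells that make IL-17 and IL-22, and IL-27 restrains several T cell responses. In macrophages and dendritic cells these genes are switched on by microbial products, largely through NF-kB and interferon regulatory factors, and each subunit gene has its own control.

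Upstream sequence was found in the RefSeq table of build GRCm38.p6 for Il12a, Il12b and Ebi3, and not for Il23a and Il27. The 250 bases before the annotated start are shown because they let a reader compare the letters of an abundant subunit gene, Il12b, with those of 2 scarce ones. They lie at chr11:44399813-44400062 for Il12b, chr17:55952373-55952622 for Ebi3 and chr3:68690394-68690643 for Il12a, all on the plus strand and written 5′ to 3′. Capitals mark the letters that match a searched motif.
Il12b: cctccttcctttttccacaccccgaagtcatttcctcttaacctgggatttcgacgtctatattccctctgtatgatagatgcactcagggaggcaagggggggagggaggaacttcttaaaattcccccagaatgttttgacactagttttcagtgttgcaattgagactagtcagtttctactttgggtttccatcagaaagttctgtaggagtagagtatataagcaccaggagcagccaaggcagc
Ebi3: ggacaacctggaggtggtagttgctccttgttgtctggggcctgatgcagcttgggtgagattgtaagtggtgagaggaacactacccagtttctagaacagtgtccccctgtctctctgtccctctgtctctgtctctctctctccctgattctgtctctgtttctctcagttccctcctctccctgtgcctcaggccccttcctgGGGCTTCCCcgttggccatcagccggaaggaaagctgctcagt
Il12a: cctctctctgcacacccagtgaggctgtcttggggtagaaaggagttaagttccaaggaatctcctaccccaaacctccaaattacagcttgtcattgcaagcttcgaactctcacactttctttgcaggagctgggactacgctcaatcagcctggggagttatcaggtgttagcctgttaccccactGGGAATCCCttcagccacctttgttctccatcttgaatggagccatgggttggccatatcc

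Each window was searched on both strands for an AP-1 motif (TGANTCA), the core of an interferon-stimulated response element (GAAANNGAA), a gamma-activated site (TTCNNNGAA) and an NF-kB motif (GGNNTTNCC). The windows of Ebi3 and Il12a each held 1 NF-kB match, 43 bases before the start in Ebi3 and 61 bases before it, on the minus strand, in Il12a, and no match to the other motifs. The Il12b window held no match to these 4 motifs. Of 32851 mouse windows of the same length, 13.5% held the NF-kB letters, 6.75% the AP-1 letters, 7.13% the response element core and 7.02% the gamma-activated site. Il12a has another annotated start, whose window held no match. A match, or the lack of one, describes the letters of these 4 patterns only, so a site with other letters is not found.

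The libraries held between 31730041 and 39888022 counts, and Batf2 was at 0 counts in all 4 Batf2-/- libraries. In WT, Batf2 had 7361, 6691, 6054 and 4459 counts in libraries 1 to 4, numbered by table column, so it was at least 8240-fold lower without BATF2 if the group floor is set at 3 counts in all. Levels are given as CPM, counts scaled to the size of each library with TMM factors, and libraries 5 to 8 are Batf2-/-. On the first principal component of log2 CPM WT libraries 1 to 4 scored -16.7, -7.73, 4.72 and 43.9, while Batf2-/- libraries 5 to 8 scored -34.95, -16.2, -1.85 and 28.9. Libraries 4 and 8 stood apart from the others of their genotype, and the scores had the same order by table position in both genotypes, with Batf2-/- lower at each position. The labels give no pairing by position. With table position as a block, 1390 genes were called against 123 without it, and of the subunit genes Il27 and Il23a were again the ones called. The defining genes of alveolar macrophages were present, with all 12 listed markers past the expression filter. Krt79 and Cidec were scarce, with WT means of 0.436 and 0.921 CPM. Only Car4 was called, and it was higher without BATF2, at a mean of 93.4 against 47.1 CPM (edgeR adjusted p = 0.00501). Groups did not overlap for 4 of the 12, with Car4, Chil3 and Krt79 higher and Pparg lower in Batf2-/-. Over all tested genes, groups did not overlap for 6.33%, and 0.550% were called higher. The summed level of the markers was 4842 to 5962 CPM in WT and 6909 to 11604 CPM in Batf2-/-. Most of that sum was Chil3, at 3316 ± 613 and 6291 ± 2055 CPM (SD, n = 4; edgeR adjusted p = 0.147), while Mrc1 had means of 645 and 644 CPM and Siglecf of 77.7 and 64.9 CPM (adjusted p = 1.00 and 0.699).

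The subunit genes did not share a direction. Il27 fell to less than its WT range in every Batf2-/- library, Il23a rose from a very low level, and Il12b, Ebi3 and Il12a were not called. Of the 4 subunit genes past the expression filter, 1 was higher and 1 was lower in Batf2-/- by edgeR's quasi-likelihood test at a Benjamini-Hochberg adjusted p under 0.05. The higher one, Il23a, passed the filter only through its Batf2-/- libraries, and its call ended without library 1, 2, 5 or 6, so the count of members is not read against the background. Over all 11083 genes tested, 1.11% were called, 0.550% higher and 0.559% lower. Groups did not overlap for Il27 and Il23a, as for 6.33% of all tested genes. The median log2 fold change of all tested genes was -0.01.

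**Figure D1:**
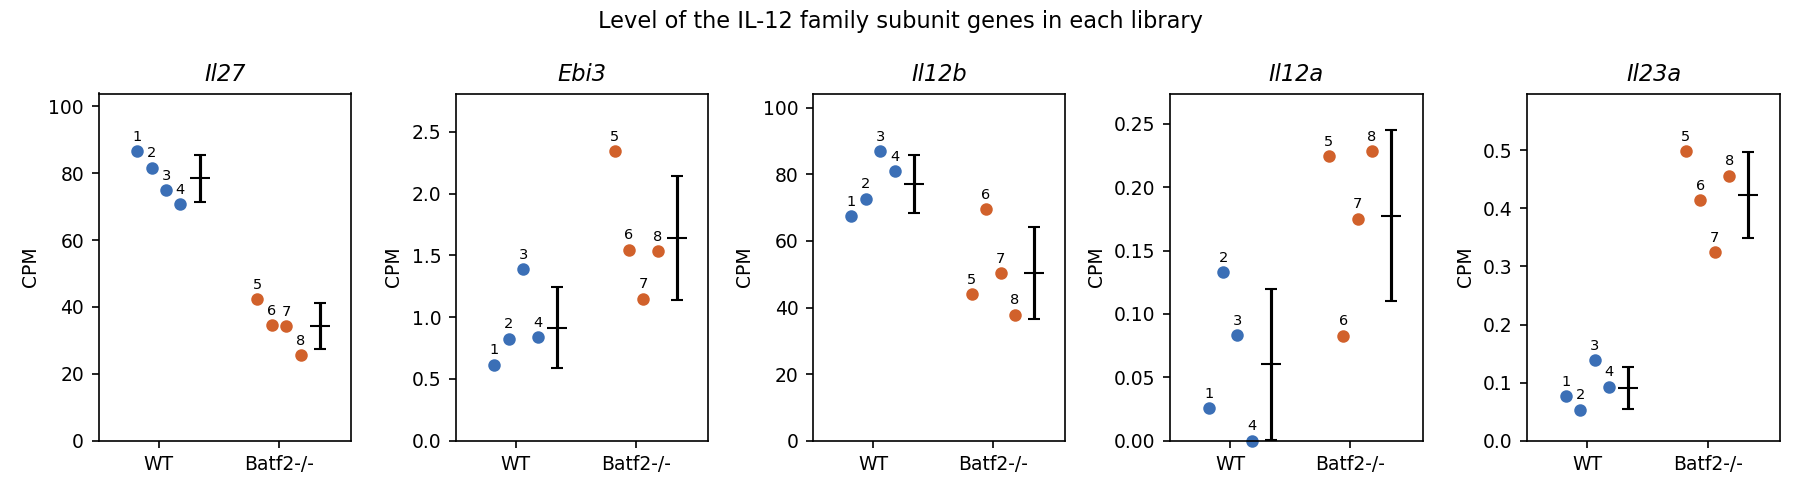
Level in CPM (linear axes from 0) of each subunit gene in the 4 WT (blue) and 4 Batf2-/- (orange) libraries, numbered by table column, with the mean and SD of each group in black. The groups are separate for Il27 and Il23a and overlap for Ebi3, Il12b and Il12a.

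Il27 (ENSMUSG00000044701; GRCm38 chromosome 7, 126589010 to 126594941, minus strand) encodes the helical p28 chain of IL-27. It had 3370, 3071, 2703 and 2284 counts in WT libraries 1 to 4, or 86.5, 81.6, 75.0 and 70.7 CPM. In Batf2-/- libraries 5 to 8 it had 1701, 1253, 1371 and 785 counts, or 42.4, 34.6, 34.3 and 25.6 CPM. Even the lowest WT library, library 4, stood above the highest Batf2-/- library, library 5. Library 4 was the lowest of its group and library 8 the lowest of the other. The mean fell from 78.5 ± 7.003 to 34.2 ± 6.86 CPM (SD, n = 4 per group), a log2 fold change of -1.20 with a standard error of 0.16 (edgeR adjusted p = 0.00670). The call held when each library was left out in turn, with adjusted p between 0.00724 and 0.0408. Without libraries 4 and 8 together, the log2 fold change was -1.12 (adjusted p = 0.00213).

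Il27 shares 103 of its 1021 exonic bases with Apobr, the gene of a lipoprotein receptor on the opposite strand, and the strand setting of the count is not given in the sources used here. Apobr averaged 19.6 ± 3.58 CPM (SD) over WT and 23.3 ± 3.15 CPM over Batf2-/- (n = 4 each; edgeR adjusted p = 0.871), with its mean difference opposite in sign to that of Il27. Dendritic cells, another source of IL-27 and IL-12 in the lung, were checked by 9 markers. Clec9a, a receptor for dead cells on cross-presenting dendritic cells, fell from 2.45 ± 0.130 to 0.253 ± 0.0717 CPM (edgeR adjusted p = 1.20e-04), while Zbtb46 stood at 0.937 ± 0.263 and 1.92 ± 0.348 CPM (adjusted p = 0.0965). Xcr1 had 12 counts over the WT group and 3 over the Batf2-/- group. In the same order, Flt3 had 5 and 12, Itgae 3 and 23, and Clec10a 3 and 2. Cd209a and Siglech were at 0 in all libraries. Ccr7, with the highest mean of the 9 in both genotypes, had 3.01 ± 0.550 and 2.65 ± 0.629 CPM, with overlap. Mean levels were lower without BATF2 for Clec9a, Ccr7, Xcr1 and Clec10a, and higher for Zbtb46, Flt3 and Itgae. The change in mean was largest for Clec9a. The summed level of the 9 markers was 5.90 to 7.63 CPM in WT and 4.31 to 5.95 CPM in Batf2-/-, and its part in the Il27 result was not tested. In bulk samples such as these, fewer cells of a type and less RNA per cell cannot be told apart.

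Ebi3 (ENSMUSG00000003206; chromosome 17, 55952640 to 55957022, plus strand) encodes the receptor-like partner of Il27. It was scarce in both genotypes, with 24, 31, 50 and 27 counts in WT and 94, 56, 46 and 47 counts in Batf2-/-. These are 0.616, 0.824, 1.39 and 0.836 CPM against 2.34, 1.55, 1.15 and 1.53 CPM. Library 3 of WT lay above library 7 of Batf2-/-, so the groups overlapped, and library 5 was the highest of all. The means were 0.916 ± 0.330 and 1.64 ± 0.501 CPM (SD, n = 4), a log2 fold change of 0.84 with a standard error of 0.30 that did not pass (edgeR adjusted p = 0.384). Adjusted p ranged from 0.139 to 0.727 over 16 alternatives, in all of which the sign was the same. Ebi3 shares 270 of its 1154 exonic bases with Gm16712 on the opposite strand, which had 3 counts in all of WT and 7 in all of Batf2-/-.

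Il12b (ENSMUSG00000004296; chromosome 11, 44400063 to 44414033, plus strand) encodes the p40 chain shared by IL-12 and IL-23. It had 2626, 2735, 3133 and 2617 counts in WT, or 67.4, 72.7, 86.9 and 81.0 CPM. In Batf2-/- it had 1765, 2518, 2011 and 1160 counts, or 44.0, 69.5, 50.3 and 37.8 CPM. Library 6 of Batf2-/- reached into the WT range, above library 1, and the other 3 Batf2-/- libraries lay below all of WT. The log2 fold change was -0.61 with a standard error of 0.19, and the gene did not pass (edgeR adjusted p = 0.251, unadjusted p = 0.00856). Its adjusted p ranged from 0.0575 with DESeq2 to 0.621 without library 3, and without library 6 it was 0.0653.

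Il23a (ENSMUSG00000025383; chromosome 10, 128296139 to 128298752, minus strand) encodes the p19 chain that makes p40 into IL-23. It had 3, 2, 5 and 3 counts in WT and 20, 15, 13 and 14 counts in Batf2-/-. The smallest Batf2-/- count, 13 in library 7, equalled the sum over the 4 WT libraries, also 13. The mean rose from 0.0904 ± 0.0361 to 0.423 ± 0.0741 CPM (SD, n = 4), a log2 fold change of 2.19 with a standard error of 0.35 (edgeR adjusted p = 0.0183). The ratio of summed counts was 4.70, with an exact 95% interval of 2.56 to 9.32 that covers counting error only. The Il23a call ended without library 1, 2, 5 or 6 (adjusted p from 0.0556 to 0.0707) and without libraries 4 and 8 together (0.0525).

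Il12a (ENSMUSG00000027776; chromosome 3, 68690644 to 68698547, plus strand) encodes the p35 chain that completes IL-12. It was barely detected, with 1, 5, 3 and 0 counts in WT and 9, 3, 7 and 7 counts in Batf2-/-, and it did not pass the expression filter. Library 6 of Batf2-/- lay within the WT range, so the groups overlapped. The summed counts were 9 and 26, a ratio of 2.85 with an exact 95% interval of 1.29 to 6.91 for counting error only. Without the filter its edgeR adjusted p was 0.691, so at this depth no difference was shown.

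Levels per length of exon set the subunits in order. In WT the means were 76.8 ± 6.86 CPM per kb for Il27, 39.2 ± 4.40 for Il12b, 0.794 ± 0.286 for Ebi3, 0.0402 ± 0.0161 for Il23a and 0.0355 ± 0.0350 for Il12a (SD, n = 4). The values of Il27, Il12b and Ebi3 did not overlap in WT, and those of Il23a and Il12a did. In Batf2-/- the order of the means was the same, at 33.5 ± 6.72, 25.6 ± 6.97, 1.42 ± 0.434, 0.188 ± 0.0330 and 0.104 ± 0.0398 CPM per kb. There Il27 and Il12b overlapped, since library 6 had 35.3 CPM per kb of Il12b and library 8 had 25.1 CPM per kb of Il27. Il23a and Il12a did not overlap in Batf2-/-, with a lowest Il23a value of 0.145 and a highest Il12a value of 0.134 CPM per kb.

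**Figure D2:**
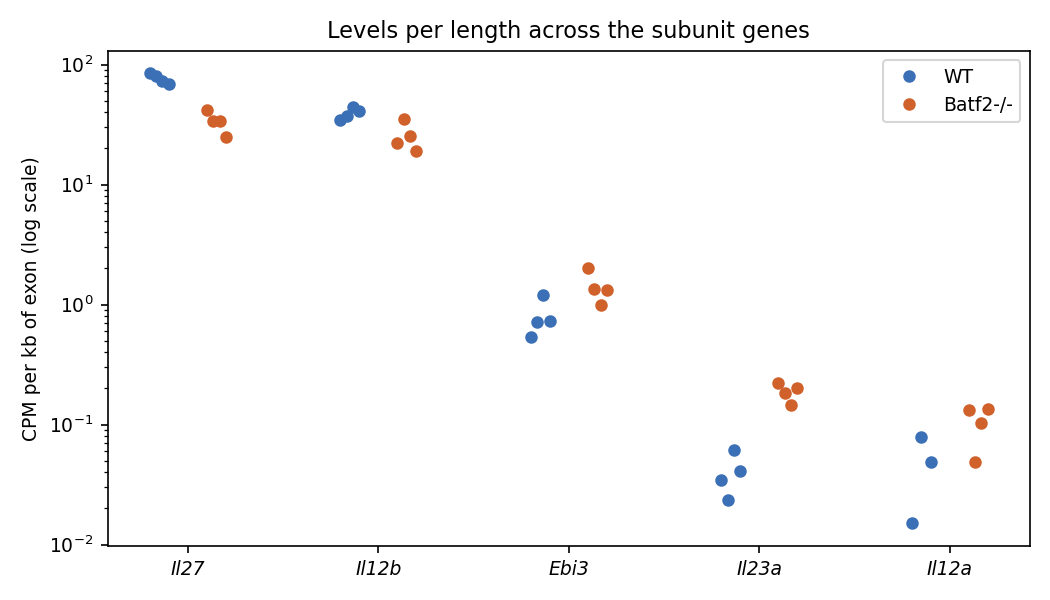
Level per length (CPM per kb of exon, log axis) of the 5 subunit genes, each point 1 library, WT in blue and Batf2-/- in orange; the WT library with 0 counts of Il12a is not drawn. Il27 and Il12b lie far above Ebi3, Il23a and Il12a in both genotypes.

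Because the cytokines are pairs, the balance of the paired mRNAs was taken within each library, which makes it free of library size. A value of 0.5 was added to each count. Il27 exceeded Ebi3 per length by 155, 110, 60.5 and 93.9 times in WT libraries 1 to 4 and by 20.4, 25.1, 33.3 and 18.7 times in libraries 5 to 8. The lowest WT ratio, in library 3, was above the highest Batf2-/- ratio, in library 7. The log2 ratio of Il27 to Ebi3 differed by -2.06 between genotypes, from 6.46 ± 0.57 to 4.39 ± 0.37 (SD, n = 4; exact permutation test, two-sided, p = 0.0286, adjusted over 4 pairs p = 0.0571). The 70 regroupings of 8 libraries allow no p below 0.0286. Of the 4 pairs, 2 reached that p, and none was under 0.05 after adjustment.

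For IL-23, Il12b exceeded Il23a per length by 857, 1250, 651 and 854 times in WT and by 98.4, 186, 170 and 91.4 times in Batf2-/-. The WT ratios rest on 3, 2, 5 and 3 counts of Il23a, so their size is uncertain. All 4 Batf2-/- ratios lay below all 4 WT ratios. The log2 ratio of Il23a to Il12b was -9.59 ± 0.39 in WT and -6.83 ± 0.53 in Batf2-/-, a difference of 2.76 (exact permutation p = 0.0286, adjusted p = 0.0571). For IL-12, Il12b exceeded Il12a by 430 to 1514 times per length in WT libraries 1 to 3 and by 134 to 622 times in Batf2-/-, with overlap between groups. Il12a had 0 counts in library 4, where the ratio is set by the added 0.5 and is not given. With all 8 libraries, the log2 ratio of Il12a to Il12b differed by 2.38 (exact permutation p = 0.0571, adjusted p = 0.0762). Without library 4 it differed by 1.75 (exact permutation p = 0.0857). For IL-35, the log2 ratio of Il12a to Ebi3 was -4.04 ± 1.34 and -3.16 ± 0.65 (exact permutation p = 0.343, adjusted p = 0.343), where library 4 again rests on the added 0.5.

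**Figure D3:**
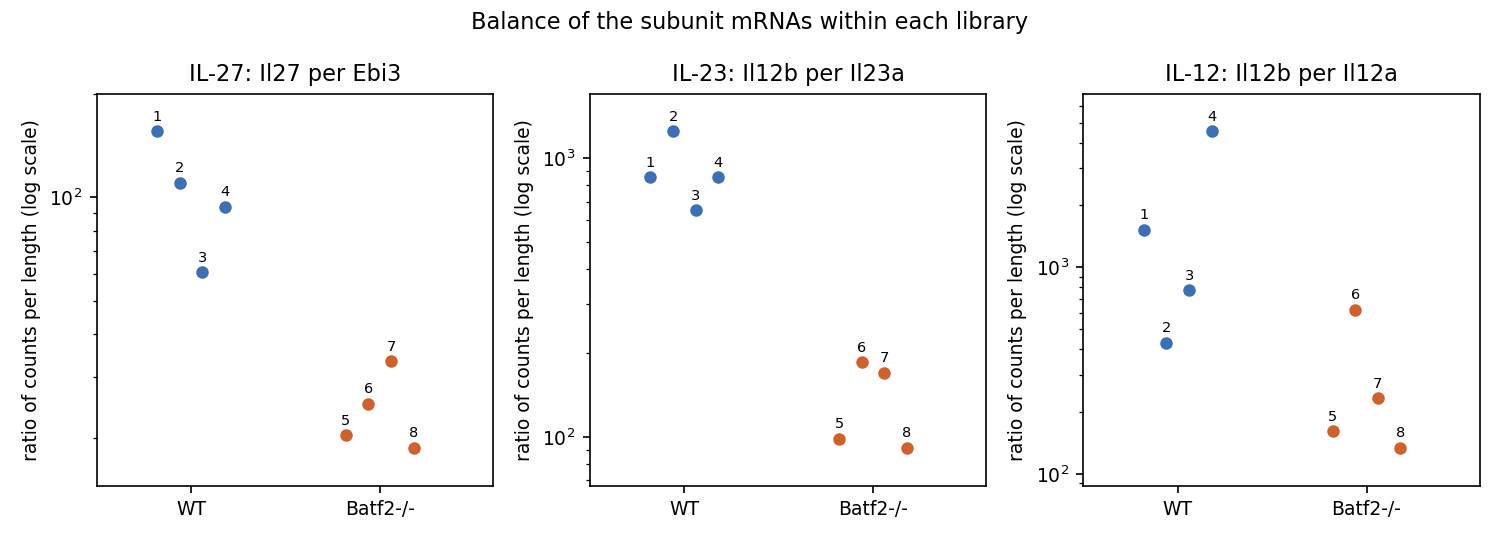
Ratio of paired subunit mRNAs per length (log axes) in each library, numbered by table column, after adding 0.5 to each count. Il27 per Ebi3 and Il12b per Il23a are separate between WT (blue) and Batf2-/- (orange), at 60.5 to 155 against 18.7 to 33.3 and at 651 to 1250 against 91.4 to 186; Il12b per Il12a overlaps, and its point for library 4 rests on the added 0.5, since Il12a had 0 counts there.

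The genes that tracked each subunit gene most closely were taken by the root mean square difference of log2 CPM over the 8 libraries, each gene centred on its own mean, among 8493 or 8494 other genes. The measure includes the difference between genotypes. A gene close to Il27 or Il23a therefore differs by genotype through the choice itself, and no test of it is given. For Il27 these included 4930523C07Rik (0.19) and Endod1 (0.20), a nuclease gene, beside a spread of 0.64 for Il27 itself. Endod1 had a mean of 120 CPM in WT and 46.6 CPM in Batf2-/-. For Il12b they were Tnf (0.17), the tumor necrosis factor gene, Lfng (0.18), a modifier of Notch, and Tctn3 (0.19), beside a spread of 0.41. Tnf averaged 4206 ± 259 CPM (SD) over WT and 3149 ± 573 CPM over Batf2-/- (n = 4 each; edgeR adjusted p = 0.357). For Il23a they were Xrcc5 (0.32), Il1b (0.34) and Slc43a2 (0.36), beside a spread of 0.91. Il1b, the interleukin 1 beta gene, had a mean of 112 CPM in WT and 301 CPM in Batf2-/-. The profile of Il23a rests on 2 to 20 counts per library. For Ebi3 they were Xaf1 (0.29), Myo10 (0.30) and Fcgr2b (0.31), beside a spread of 0.56. Il12a, below the filter, was not compared.

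The receptor chains of these cytokines were not called in any fit without the table position block. None of the 4 tested receptor genes passed by the reported edgeR fit, by DESeq2 or by limma-voom. Over all 11083 tested genes, 1.11% were called by edgeR, while DESeq2 called 347 genes and limma-voom 116. Of the 4 receptor genes 0 had an unadjusted p under 0.05, against 942 of all 11083 tested genes. The median log2 fold change of the receptor genes was 0.07. Il6st, the signalling chain gp130 used by IL-27, averaged 59.6 ± 9.03 CPM (SD) over WT and 62.5 ± 6.98 CPM over Batf2-/- (n = 4 each; edgeR adjusted p = 1.00). Il27ra, the specific chain of the IL-27 receptor, stood at 4.00 ± 1.17 and 4.19 ± 0.790 CPM (adjusted p = 1.00). Il12rb1, the chain shared by the IL-12 and IL-23 receptors, stood at 0.335 ± 0.180 and 0.558 ± 0.481 CPM (adjusted p = 1.00), with library 5 highest at 1.25 CPM. Il23r had 16 counts over WT and 27 over Batf2-/- and did not pass the filter.

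Il12rb2, the second chain of the IL-12 receptor, stood at 73.3 ± 17.5 and 59.9 ± 14.1 CPM (SD, n = 4; edgeR adjusted p = 0.981). Per length it had 19.3 ± 4.61 CPM per kb in WT, against 0.0817 ± 0.0439 CPM per kb of Il12rb1. However, 1519 of the 3794 exonic bases of Il12rb2 overlap Serbp1 on the opposite strand, which stood at 228 ± 4.79 CPM in WT. With the strand setting of the count not known, the level of Il12rb2 is uncertain.

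Downstream signalling genes and known regulators of the subunit genes were not called either in any fit without the table position block. Of 8 signalling genes 0 passed by edgeR, DESeq2 or limma-voom, 0 had an unadjusted p under 0.05, and the median log2 fold change was 0.08. Socs3, the feedback inhibitor of gp130, averaged 173 ± 32.0 CPM (SD) over WT and 212 ± 47.6 CPM over Batf2-/- (n = 4 each; edgeR adjusted p = 0.913). Stat4, the main mediator of IL-12 signals, had 43 and 58 counts over the groups (adjusted p = 1.00). Of 20 regulators 0 passed by edgeR, DESeq2 or limma-voom, and the median was 0.01. Over all tested genes 1.11% were called by edgeR, so 0 calls in lists of 8 and 20 genes say little about them. Among the 20 regulators 3 had an unadjusted p under 0.05, as did 942 of all 11083 tested genes. Those 3 were Batf3, a relative of Batf2, at 5.43 ± 1.51 and 8.59 ± 1.88 CPM (adjusted p = 0.317), Fos at 8.18 ± 1.78 and 5.60 ± 0.911 CPM (adjusted p = 0.347) and Nfil3, a repressor of Il12b, at 20.6 ± 1.83 and 25.1 ± 2.00 CPM (adjusted p = 0.455). Irf1 and Irf8, which activate Il12b and Il27, stood at 1462 ± 147 and 1428 ± 156 CPM and at 2067 ± 64.8 and 2011 ± 92.4 CPM. Rel, an NF-kB subunit needed for several of these genes, stood at 76.1 ± 8.77 and 75.3 ± 9.29 CPM.

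Among 12 tested genes for signals that act on the subunit genes, 1 fell, none rose and 11 did not pass, with a median log2 fold change of 0.00. Over all tested genes, 0.559% were called lower and 0.550% higher. The gene that fell was Ptger2, a receptor for prostaglandin E2, a lipid known to shift the balance of IL-12 and IL-23. Its values were 11.0, 7.15, 9.21 and 8.89 CPM in WT and 4.93, 4.58, 6.05 and 3.88 CPM in Batf2-/-, and the groups did not overlap. The log2 fold change was -0.90 (edgeR adjusted p = 0.0475). Leaving out any of the 8 libraries ended this call, with adjusted p from 0.0517 to 0.186. Ptger4, the other listed prostaglandin E2 receptor, stood at 10.6 ± 2.74 and 10.8 ± 2.35 CPM (adjusted p = 1.00). Tlr4, the receptor for lipopolysaccharide, stood at 46.1 ± 3.40 and 38.8 ± 4.96 CPM (adjusted p = 0.643), and Ifnar1 at 39.2 ± 3.77 and 50.4 ± 4.94 CPM (adjusted p = 0.298). Il10, which represses Il12b, had 0 counts in WT and 5 in Batf2-/-.

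Of the wider IL-6 superfamily, whose members resemble the helical chains or signal through gp130, 4 of 8 listed genes were tested, and 1 rose. Of all tested genes, 0.550% were called higher. Lif, leukemia inhibitory factor, had 85, 35, 47 and 33 counts in WT and 200, 132, 161 and 86 counts in Batf2-/-. In CPM the groups did not overlap, the highest WT library having 2.18 and the lowest Batf2-/- library 2.80. The log2 fold change was 1.50 (edgeR adjusted p = 0.0446), and the call ended without library 2, 3, 4, 5, 6 or 7 (adjusted p from 0.0859 to 0.177). Osm, oncostatin M, stood at 2.71 ± 0.764 and 4.69 ± 1.56 CPM (SD, n = 4; adjusted p = 0.397), and Il6 at 121 ± 32.1 and 85.8 ± 16.2 CPM (adjusted p = 0.568). The median over the 4 tested genes was 0.48.

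Cytokines made by the lymphocytes that IL-12 and IL-23 act on were present at trace levels. Of 7 listed genes 2 were tested, and 1 of these, Il17f, was called higher. Il17f passed the filter only through its Batf2-/- libraries, so this count of members is not read against the background of 0.550%. It had 2, 0, 0 and 1 counts in WT and 61, 13, 15 and 14 counts in Batf2-/-. The ratio of summed counts was 33.8, with an exact 95% interval of 11.3 to 167 for counting error only (edgeR adjusted p = 0.0342, log2 fold change 4.84). Without library 5, the highest, the adjusted p was 0.0310 and the log2 fold change 4.04, and the call ended without library 1, 2, 3, 4 or 7 (adjusted p from 0.0668 to 0.154). Il17a, below the filter, had 3, 0, 1 and 0 counts in WT and 71, 5, 4 and 8 counts in Batf2-/-, with no overlap and an edgeR adjusted p of 0.192 without the filter. Il22 had 6, 2, 12 and 3 counts in WT and 39, 11, 11 and 10 in Batf2-/-, with overlap (adjusted p = 0.463). Ifng had 1 count over WT and 6 over Batf2-/-.

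No T cell marker was called, but several had more counts over the Batf2-/- group. Cd3e had 7, 0, 2 and 1 counts in WT and 26, 5, 5 and 4 in Batf2-/-. Cd3g had 3, 0, 2 and 1 counts in WT and 18, 4, 14 and 20 in Batf2-/-, without overlap, and Cd4 had 13, 4, 4 and 2 against 66, 8, 10 and 20. The groups overlapped for Cd3e and Cd4, and without the filter the edgeR adjusted p was 0.626 for Cd3e, 0.0801 for Cd3g and 0.340 for Cd4. Library 5 was the highest of all for Il17a, Il17f, Il22, Cd3e and Cd4, and library 8 for Cd3g. Library 5 was also the highest for Ebi3, Il12rb1, Lif and Il23a, with Il23a at 0.498 CPM against 0.457 CPM in library 8. None of the 7 T and NK cell markers passed the filter, the summed level was 0.425 to 0.642 CPM in WT and 0.524 to 3.06 CPM in Batf2-/-, and Ncr1 was at 0 throughout. Summed neutrophil markers were at 17.0 to 31.1 CPM in WT and 28.4 to 51.2 CPM in Batf2-/-, nearly all from S100a8 (means of 19.2 and 29.2 CPM, edgeR adjusted p = 0.699) and Cxcr2 (2.89 and 6.03 CPM, adjusted p = 0.122). S100a9 had 1 count in each group, and Ly6g, Mpo and Retnlg were at 0. Summed B cell markers reached at most 0.0619 CPM in WT and 0.174 CPM in Batf2-/-. The part of these cells in the Il23a, Ebi3 and Il17f values was not tested.

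**Figure D4:**
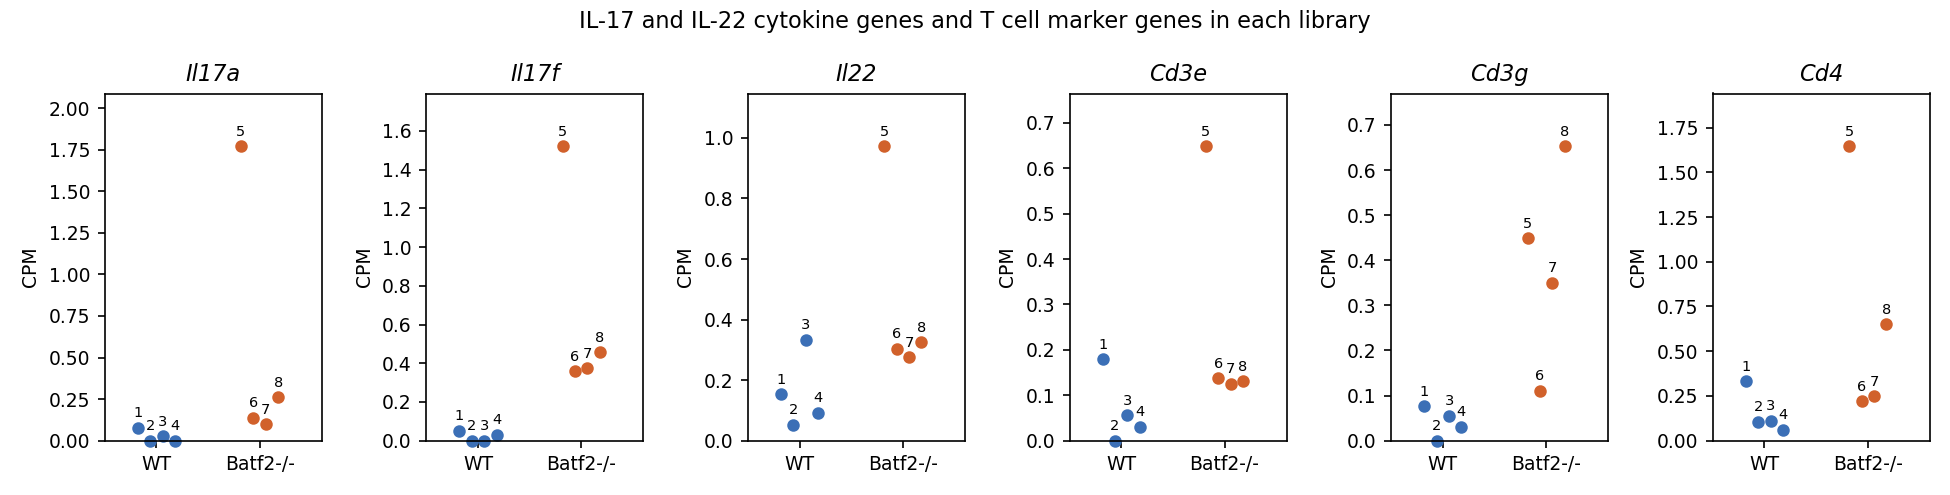
Level in CPM (linear axes from 0) of 3 cytokine genes of IL-23 responsive lymphocytes and 3 T cell marker genes in each library, numbered by table column, WT in blue and Batf2-/- in orange. Library 5 (Batf2-/-) is the highest for Il17a, Il17f, Il22, Cd3e and Cd4, and library 8 for Cd3g.

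The direction of the 4 tested subunit genes was the same under every alternative that gave a value. Il27 passed in all 16 alternatives, with log2 fold changes from -1.32 to -1.08, and Il23a in 10 of 15, from 2.01 to 2.48. Il12b and Ebi3 passed in 0 of 16 each, with log2 fold changes from -0.81 to -0.46 and from 0.62 to 1.13. These alternatives included edgeR, DESeq2 and limma-voom, and the unadjusted edgeR p was 0.00856 for Il12b and 0.0193 for Ebi3.

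**Figure D5:**
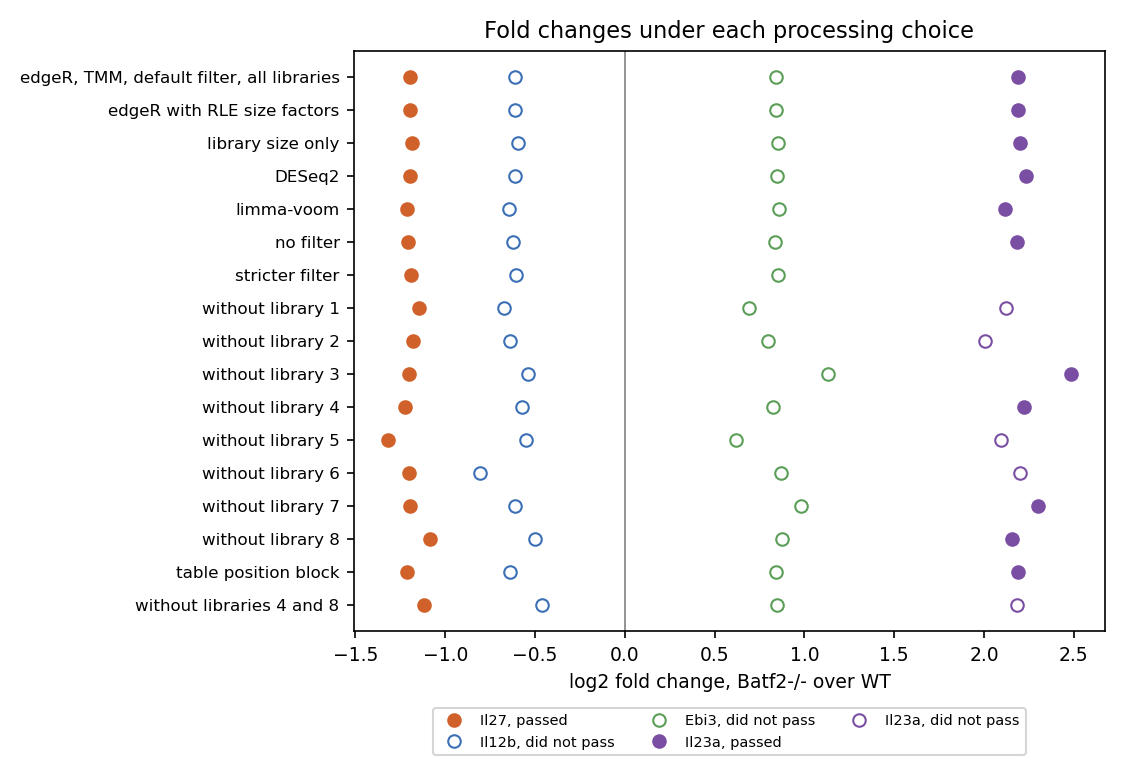
Log2 fold change (Batf2-/- over WT) of 4 subunit genes under the reported fit (top) and each alternative, filled where the adjusted p was under 0.05 and open where it was not. Il27 is filled at every setting, Il23a at some, and Il12b and Ebi3 at none; Il23a has no value under the stricter filter.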

How the data were processed

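The deposited table holds raw total counts of reads per gene, not normalized, per the file headers. Per the labels' protocols, the library kit for mRNA was a stranded one. The submitters' processing notes name the build mm10 (GRCm38). The aligner, counting tool, strand setting and annotation are not given in the sources used here. Columns were assigned to genotype by the heading above them and carry no replicate number, so p-values measure the spread between pools of 4 mice. Library pairs within a genotype differed by more than sampling noise (chi-square over degrees of freedom of at least 30.5), so all 8 were kept as separate samples.

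Counts of all 48709 genes were fitted with edgeR 4.0.16 in R 4.3.3 (quasi-likelihood test, robust, TMM factors, default expression filter, genotype as the only term), and p-values were adjusted over the 11083 genes tested with a threshold of 0.05. Standard errors are the log2 fold change divided by the square root of the F statistic. Exonic lengths are unions of GENCODE M21 exons on GRCm38, where 48349 identifiers matched. Count ratios of subunit pairs were compared by exact permutation of libraries. Alternatives were RLE factors, library size only, DESeq2 1.42.0, limma-voom (limma 3.58.1), no filter, at least 1 CPM in 4 libraries, other ratio offsets and leaving out each library. A block on table position and leaving out libraries 4 and 8 were added after the data were seen. Genes to be named were Batf2, the subunit genes, all receptor genes, every list member that passed, up to 6 others per list with the smallest adjusted p, and the 3 closest genes to each subunit gene whose average log2 CPM reached 2 (prior count 2). Not all of these are printed, 1 close gene is not reported here, and Ptger4, Irf1, Irf8, Rel, Il10, Il17a, Ifng and overlapping genes were named after their values were seen. The members and lists were chosen with earlier results of these data known.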

Additional observations from a re-analysis of the deposited data

Results flagged for a closer look

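Within groups of 4 libraries, 5 of 80 groups examined held a library far from the other 3 by Dixon's ratio of the gap to the range, at the 95% critical value, where chance gives about 1 in 20. Il17f in Batf2-/- had a ratio of 0.916 and Il22 in Batf2-/- a ratio of 0.927, both because library 5 was high, at 1.52 and 0.972 CPM. Batf3 in WT had a ratio of 0.865, with library 4 high at 7.68 CPM against 4.42 to 4.85 CPM. Maf in WT had a ratio of 0.851, with library 4 low at 1.24 CPM against 1.86 to 1.97 CPM. Ifnar1 in Batf2-/- had a ratio of 0.856, with library 8 low at 43.0 CPM against 51.9 to 53.3 CPM.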

How the results depend on the processing

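Over all genes, 123 were called, 347 with DESeq2, 1390 with the table position block, 206 without libraries 4 and 8, and 43 (without library 3) to 142 (without library 8) when a library was left out. Il23a had a log2 fold change of 2.18 and an adjusted p of 0.0525 without libraries 4 and 8, and its log2 fold change ran from 2.01 to 2.48 with a library left out. The stricter filter removed Il23a and Il17f, so they have no value there. Of the genes for upstream signals, 1 was called in the reported fit, 0 with library size only, limma-voom, the stricter filter or without libraries 4 and 8, and 0 to 0 with a library left out. Of the IL-6 superfamily genes, 1 was called, 0 with library size only or the stricter filter, and 0 to 1 with a library left out. Of the lymphocyte cytokine genes, 1 was called, 0 with the stricter filter, and 0 to 1 with a library left out. With the table position block, 1390 of all 11083 tested genes were called. The calls included 1 of 4 tested receptor genes, 1 of 8 signalling genes and 5 of 20 regulators. They also included 5 of 12 upstream genes and 3 of 4 IL-6 superfamily genes. In the reported fit these list counts were 0, 0, 0, 1 and 1. Called with the block were Il12rb2 among receptors, Socs3 among signalling genes, and Atf3, Batf3, Ets2, Fos and Nfil3 among regulators. The upstream genes were Ifnar1, Il10rb, Ptger2, Ticam1 and Tlr4, and the IL-6 superfamily genes were Il6, Lif and Osm. The causes of these differences between settings were not tested. No paired analysis was possible because the count columns carry no replicate number from the labels; the block on table position is not such a pairing. Depth limits Il12a, Il23a and Il17f, whose WT groups held 9, 13 and 3 counts.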
